A study of Mus musculus with 56 samples.

Results

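The transcripts described are 36 genes of the cytosolic heat shock response and protein folding machinery in mouse liver. They were chosen by name, as heat shock proteins driven by the transcription factor HSF1, co-chaperones of HSP70 and HSP90, and subunits of the chaperonin CCT, and they are 36 of the 52230 genes with summed reads. Earlier results of these data were known when the list was made. By role they comprised 6 of the HSP70 and HSP110 families, 5 J-domain proteins, 2 HSP90 genes, 8 co-chaperones, 3 small heat shock proteins, 8 CCT subunits, Hsf1 and 3 chaperones (Hspa9, Hspd1 and Hspe1) whose proteins work in mitochondria, so the cytosolic name does not hold for those 3. Livers were sequenced from 56 male mice of the knock-in line GCKR-P446L-EMI-B6N, aged 28 weeks, in which GKRP, the regulatory protein of glucokinase encoded by Gckr, carries proline (P) or leucine (L) at residue 446. Every mouse, the PP controls included, was fed the HFHSD (a diet rich in fat and sugar) for its last 20 weeks, with 45% of energy as fat and with 10% glucose and 5% fructose in the drinking water. Without further treatment there were 10 mice of PP genotype, 8 of PL and 10 of LL. A further 10 of PP, 8 of PL and 10 of LL genotype were given a glucokinase activator (GKA) at 3 mg/kg. PP mouse 7 was left out, so that 9 PP mice without GKA and 55 mice overall were compared. Nothing used here states whether mice of a group shared a litter or a harvest day.

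Cells hold their proteins in a folded state with ATP-driven chaperones. HSP70 proteins (Hspa8, made at all times, and Hspa1a and Hspa1b, the inducible forms) bind exposed stretches of a client, J-domain proteins (Dnajb1, Dnaja1) bring clients and start the ATP cycle, and HSP110 proteins (Hsph1) exchange the nucleotide. HSP90 (Hsp90aa1 and Hsp90ab1) finishes signalling proteins and nuclear receptors together with co-chaperones, and CCT folds actin and tubulin in a ring of 8 different subunits. Under heat or proteotoxic stress HSF1 trimers bind heat shock elements, inverted repeats of the unit GAA and TTC, and raise transcription of many of these genes. In liver, HSF1 activity and part of these transcripts also follow body temperature across the day.

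The promoters of 5 genes are shown because they span the range of heat shock elements met here, from several in tandem to none. Each stretch of 150 bases runs from 120 bases before to 30 bases after the RefSeq start on mouse build GRCm38.p6, 5′ to 3′ on the strand of the gene, and capitals mark matches to GAANNTTC or TTCNNGAA.
Hsph1 (chr5:149636286-149636435, minus strand): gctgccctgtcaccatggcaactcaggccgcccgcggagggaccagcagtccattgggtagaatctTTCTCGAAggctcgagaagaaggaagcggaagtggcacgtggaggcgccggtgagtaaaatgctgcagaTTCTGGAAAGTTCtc
Chordc1 (chr9:18292147-18292296, plus strand): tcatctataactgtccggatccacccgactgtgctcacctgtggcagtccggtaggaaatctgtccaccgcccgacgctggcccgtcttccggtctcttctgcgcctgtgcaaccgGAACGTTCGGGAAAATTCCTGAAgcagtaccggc
Hspe1 (chr1:55088028-55088177, plus strand): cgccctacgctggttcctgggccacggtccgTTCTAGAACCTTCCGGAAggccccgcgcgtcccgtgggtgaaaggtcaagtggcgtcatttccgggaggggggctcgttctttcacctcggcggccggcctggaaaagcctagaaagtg
Hspa1b (chr17:34959209-34959358, minus strand): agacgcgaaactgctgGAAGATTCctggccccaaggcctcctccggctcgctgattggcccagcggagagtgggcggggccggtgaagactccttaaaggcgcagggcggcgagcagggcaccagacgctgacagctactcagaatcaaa
Dnajb1 (chr8:83608055-83608204, plus strand): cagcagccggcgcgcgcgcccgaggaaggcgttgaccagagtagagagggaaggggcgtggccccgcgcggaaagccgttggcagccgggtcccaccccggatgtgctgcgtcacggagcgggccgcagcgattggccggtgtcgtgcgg

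Windows of 300 bases (250 before and 50 after the start) were given for 28 of the 36 genes, in 37 windows. Hspa8, Hsp90aa1, Hsp90ab1 and Hsf1 were among the genes without a window. Both letter strings were searched, each of which reads the same on either strand, and matches may share a unit with the next match. A 2-unit element was in a window of 16 of the 28 genes (57.1%), against 17.0% of the 27025 genes with a window. The 3-unit strings GAANNTTCNNGAA and TTCNNGAANNTTC were in 5 of the 28 (17.9%), namely Chordc1, Dnajb6, Hspd1, Hspe1 and Hsph1, against 0.662% of all genes. Hspd1 and Hspe1 lie head to head and share the same stretch. In Chordc1 the matches followed each other across the start, with centres 0, 5, 10 and 15 bases from it, and in Hsph1 they lay 50 bases before and 19 and 24 bases after the start shown. Hspa1a and Hspa1b each had a match 100 bases before the start. Dnajb1 had neither string in its windows, which says only that these letters are not in them. By role, 3 of 7 CCT subunits held a 2-unit element and none of the 7 a 3-unit string, against 3 and 1 of 7 co-chaperones. A match is a description of the letters and no binding was measured.

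The libraries held between 5189852 and 8093368 assigned reads, with a median of 6555851. The liver label matched 7 hepatocyte markers with reads here, whose summed level was between 79131 and 136170 counts per mega reads (CPM). Markers of macrophages summed to between 86.2 and 701 CPM, those of bile duct to between 6.89 and 95.3 CPM, those of blood to between 290 and 2953 CPM and those of skeletal muscle to at most 3.14 CPM. Markers of stellate cells and fibroblasts summed to between 105 and 321 CPM, with 121 to 235 in PL against 143 to 238 CPM in PP mice without GKA. In the genotype comparisons with PP over all mice, no gene of these lists was called, but some moved at an unadjusted p below 0.05. By PL genotype these were 4 of 8 stellate markers and both bile duct markers tested, of 6 listed. All were lower, with list medians of -0.26 and -0.60 on the log2 scale, where 7.28% of all genes were lower at that threshold. By LL genotype 4 of the 6 blood markers tested, of 10 listed, were higher, with a list median of 0.63. Over all genes 903 of 11477 were higher at that threshold. Their part in the results was not tested. Since the samples are whole tissue, fewer cells of a type and less RNA per cell cannot be told apart. Further lists summed to between 887 and 4624 CPM (adipose), 84.0 and 205 CPM (endothelial) and 6.90 and 50.8 CPM (pancreas). The adipose list was thus the highest after hepatocytes, although 3 of its 6 markers were at 0 in all PP mice without GKA. Tests of the genes of these further lists are not given here. The mean fragment length of the libraries differed widely, from 171 to 681 bases, with group medians from 408 (PL with GKA) to 472 (LL with GKA). Transcripts with an effective length below 20 bases took between 0.004% and 60.2% of a library's deposited TPM but at most 2.87% of its reads. TPM was therefore not compared between mice, and levels of different genes are given as CPM per kilobase of effective length of the protein-coding transcript with most reads. All reads of a gene were divided by that length, although this transcript held 33.6% of the reads of Hsph1 and 51.9% of those of Hspa8.

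On this scale Hspa8 was the most abundant transcript, at 430 ± 123 CPM per kilobase (SD over 55 mice). Hsp90ab1, the constant form of HSP90, followed at 279 ± 47.8, then the mitochondrial pair Hspe1 (238 ± 86.4) and Hspd1 (145 ± 13.3), which form the chaperonin that folds imported proteins. The mean of Hsp90ab1 lay within 1 SD of Hspe1. Hspa9 came next after Hspd1, at 124 ± 10.3, and the intervals of mean ± SD of these neighbours overlapped. The 8 CCT subunits, which enter a complex in equal numbers, lay close together between 25.6 (Cct7) and 58.2 (Cct5) CPM per kilobase. At the low end, Hsph1 was in place 27 with 9.01 ± 4.32, Hsf1 in place 30 with 4.08 ± 0.757, Dnajb1 in place 31 with 3.88 ± 1.29 and the inducible Hspa1b in place 35 with 1.77 ± 1.73 CPM per kilobase. Hspa1a was in the last place, with a mean of 1.14 reads per library, and had no read in all 8 PL mice with GKA and in 5 of 9 PP mice. Summed by role, the mitochondrial chaperones (508 ± 99.9) and the HSP70 and HSP110 genes (462 ± 129) led on this scale, and Hsf1 itself was lowest. The order of roles depended on the scale. By summed TPM, HSP70 and HSP110 genes (700 ± 327) and HSP90 (463 ± 247) were above the mitochondrial chaperones (352 ± 120). The main transcript of Hspe1 has only 774 bases, and its level ranged from 114 to 535 CPM per kilobase. By mean TPM, 24 of the 36 genes kept within 3 places, and the largest shift was 9 places (St13).

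**Figure D1:**
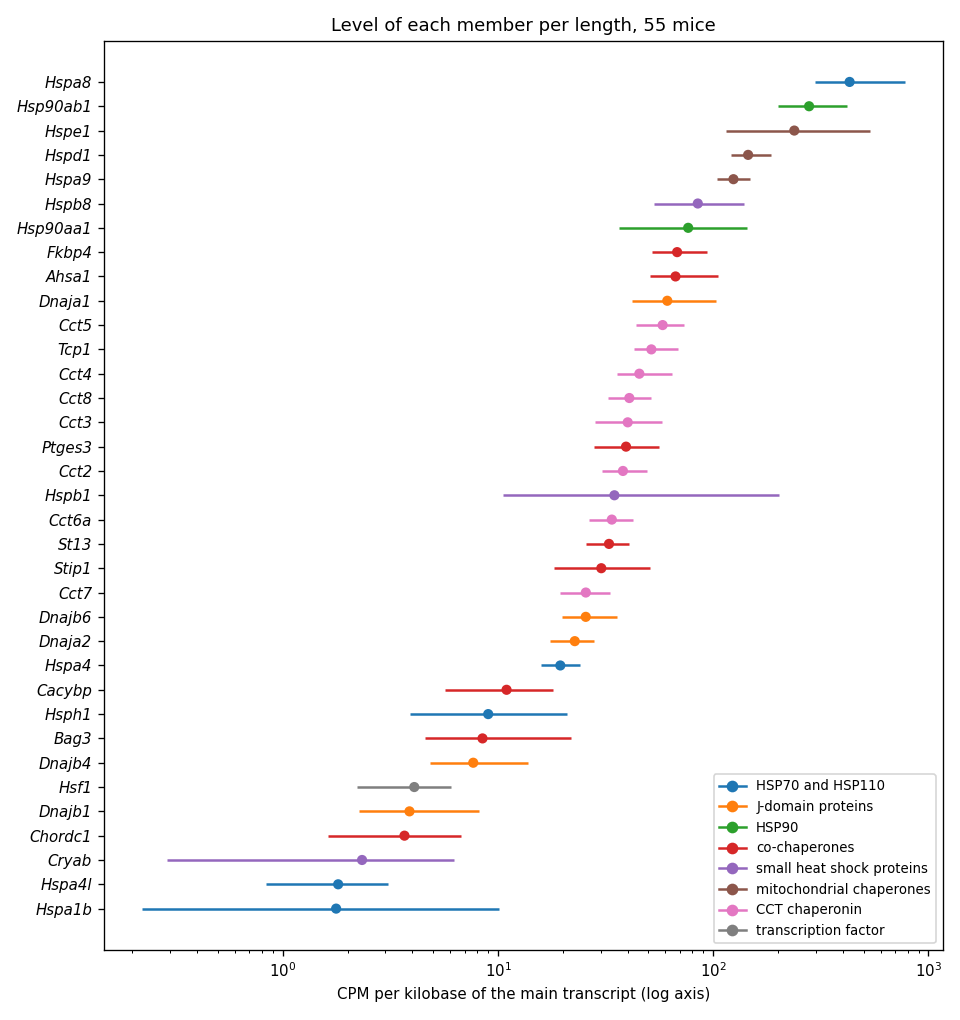
Level of 35 of the 36 genes (Hspa1a, with libraries at 0, is not drawn) as CPM per kilobase of effective length on a log axis, with points for the mean over 55 mice, lines from the lowest to the highest mouse and colours by role. Hspa8 leads at 430, CCT subunits form a narrow band between 25.6 and 58.2, and the inducible Hspa1b closes the order.

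The question asked first was whether the chaperone transcripts differ by PL or LL genotype in mice without GKA. Of the 36 genes, 34 passed the filter on low counts (Hspa1a and Cryab did not). By PL genotype 4 fell and none rose: Hsph1, Dnajb1, Hspa8 and Hspa1b, where over all genes tested the share called was 0.151%. An unadjusted p below 0.05 with a lower level was found for 15 of the 34, against 5.02% of all genes. The estimate was below 0 for 30 of the 34 (88.2%, against 51.1% of all genes), with a median log2 fold change of -0.13. Because the list was made with earlier results of these data known, shares of members beside those of all genes are description and no independent test, here and below.

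Hsph1 (ENSMUSG00000029657, chromosome 5, 149537636 to 149560156, minus strand, GRCm39) was between 26.8 and 66.4 CPM in PP mice, with a median of 48.5. In PL mice it was between 16.9 and 28.8 CPM (median 26.9), and in LL mice between 12.6 and 62.3 CPM (median 21.6). All 8 PL mice and 9 of 10 LL mice were below the PP mean, and the exception was LL mouse 42, which lay in the upper part of the PP range. The PP mean was 48.5 ± 12.3 CPM (SD, n = 9), against 24.9 ± 4.28 CPM for PL (n = 8) and 25.6 ± 14.0 CPM for LL mice (n = 10). The log2 fold change in PL was -0.96 ± 0.15 (SE, adjusted p = 0.0158, edgeR's quasi-likelihood test with Benjamini-Hochberg adjustment, as for each adjusted p that follows). In LL it was -0.92 ± 0.23 with adjusted p = 0.109, so that a difference of like size did not pass.

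Dnajb1, the main J-domain partner of inducible HSP70, was between 9.58 and 19.3 CPM in PP mice (median 12.7) and between 5.92 and 8.90 CPM in PL mice (median 8.31). These groups did not overlap, with all 8 PL mice below all 9 PP mice. Of all members and all 9 pairs of groups compared, this was the only such case. The share of all genes without overlap was not computed, so this describes the mice and is not set against other genes. In LL mice Dnajb1 was between 6.19 and 18.0 CPM (median 7.97), and 9 of 10 were below the PP mean. The log2 fold change was -0.82 ± 0.14 in PL (adjusted p = 0.0158) and -0.63 ± 0.18 in LL (adjusted p = 0.13, edgeR).

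Hspa8 was between 758 and 1475 CPM in PP mice (median 1172), between 615 and 813 CPM in PL mice (median 671) and between 650 and 1316 CPM in LL mice (median 743). The PL mice sat in a narrow range at the low edge of PP, and LL mouse 42 again stood at the top of its group. Hspa8 had the most reads of the 36 genes, and its PP mean was 1140 ± 243 CPM, against 693 ± 73.2 CPM for PL and 786 ± 190 CPM for LL mice. The log2 fold change was -0.72 ± 0.12 in PL (adjusted p = 0.0158) and -0.54 ± 0.14 in LL (adjusted p = 0.112, edgeR).

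Hspa1b, inducible HSP70, was low throughout. It was between 2.50 and 21.9 CPM in PP mice (median 7.63), between 1.27 and 3.37 in PL mice (median 2.13) and between 1.12 and 16.6 in LL mice (median 2.87), the highest again mouse 42. The log2 fold change was the largest of the members, at -1.84 ± 0.34 in PL (adjusted p = 0.0303), and was -1.13 ± 0.44 in LL (adjusted p = 0.288, edgeR). Without LL mouse 42 the latter was -1.74 ± 0.33 (adjusted p = 0.0218, edgeR). Hspa1a and Hspa1b are 99.2% identical over 2201 bases, so their reads cannot be assigned with certainty. The sum of both gave -1.85 ± 0.35 in PL (adjusted p = 0.0349, edgeR).

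The calls by PL genotype were not equally firm. In the 17 fits that each left out 1 mouse, Hsph1 and Dnajb1 were called in 17 and Hspa8 in 15, the exceptions being without PL mouse 25 and without PL mouse 28. Hspa1b was called in 6 of the 17, so its call depended on most single mice. By LL genotype no member was called, where the share called over all genes was 0.0854%, although 13 of 34 had an unadjusted p below 0.05 with a lower level (5.69% of all genes) and Hspb1 had it with a higher level. This count turned on LL mouse 42. Without it, 7 members fell by LL genotype: Hsph1 (-1.16 ± 0.17, adjusted p = 0.00499, edgeR), Dnajb1, Hspa8, Hspa1b, Dnaja1, Bag3 and Chordc1. Without this mouse the calls over all genes also went up, from 9 to 85 (0.813% of those tested). Without PP mouse 6, Hsph1 and Hspa8 were called, with 0.633% of all genes. DESeq2, the tool of the study, called Hsph1, Hspa8 and Dnajb1 by LL genotype with all mice kept, and 109 of the 10537 genes tested. Between LL and PL mice no member was called (0.00942% of all genes were) and none had an unadjusted p below 0.05, by edgeR. DESeq2 called no member there (0.226% of all genes). The comparisons of PL and of LL with PP share the same PP mice.

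**Figure D2:**
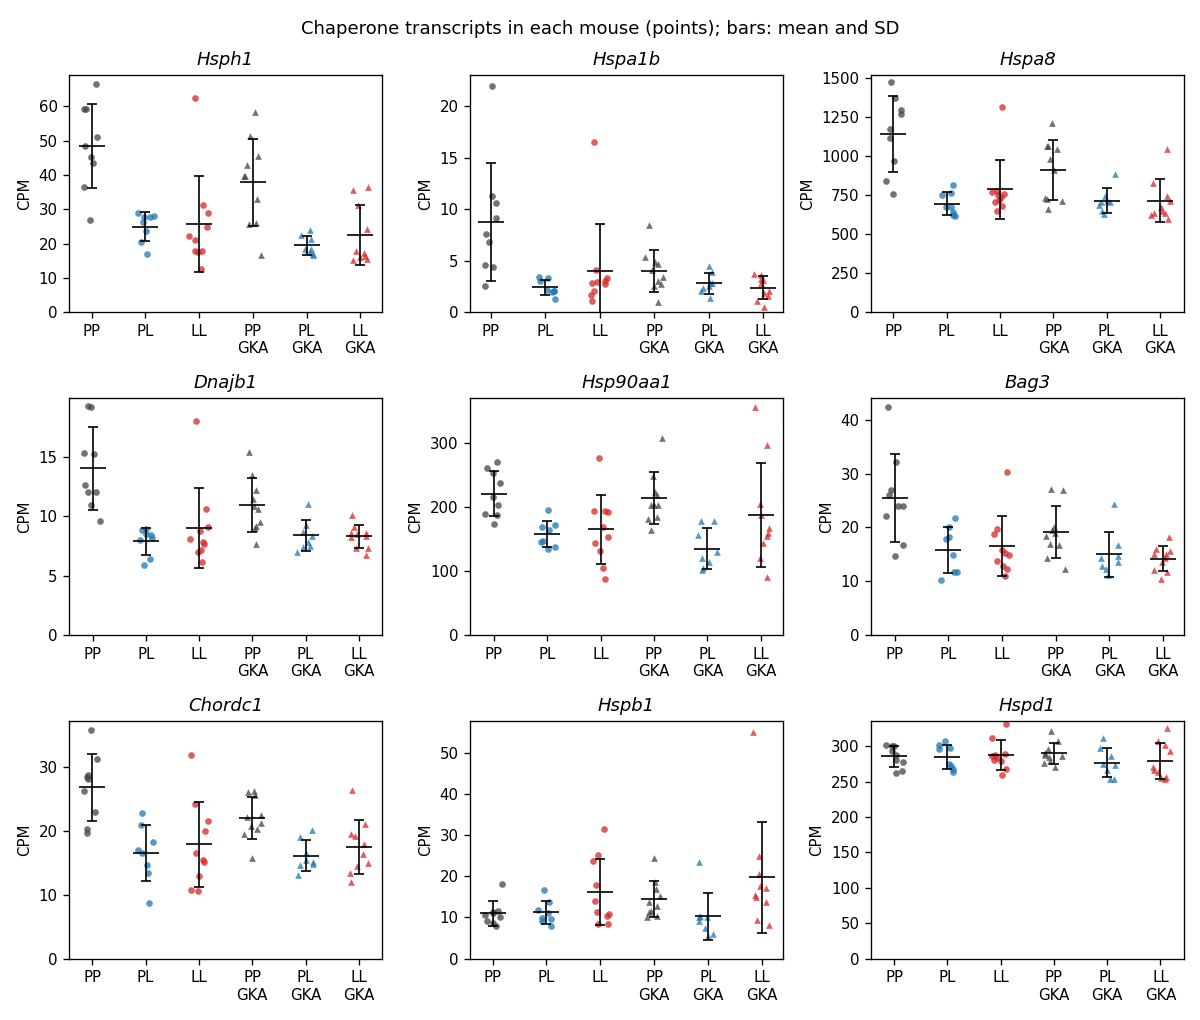
CPM of single mice for 9 members (7 called by genotype, with Hspb1 and Hspd1 for comparison), by genotype and GKA, with points for mice and bars for the group mean and SD. PP mice without GKA reach highest in Hsph1, Hspa8, Dnajb1 and Hspa1b, PL mice form tight low clusters, and LL mouse 42 lies far above the other LL mice.

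Over all 55 mice, with genotype and GKA as additive terms, 35 members were tested (Hspa1a was not). By PL genotype 7 fell and none rose, where 1.05% of all genes were called. By LL genotype 3 fell and none rose, where 1.7% of all genes were called. With adjusted p alone and no fold threshold the counts were 14 and 9, against 1.91% and 3.84% of all genes. With PP mouse 7 kept, 5 were called by PL genotype, where 1.09% of all genes were called. Hspa8 and Bag3, both at -0.51, then lay short of the fold threshold. An unadjusted p below 0.05 with a lower level was found for 16 of 35 by PL genotype (7.28% of all genes) and for 16 by LL genotype (8.1% of all genes). The estimate was below 0 for 32 of 35 by PL genotype (91.4%, against 50.0% of all genes) and for 28 by LL genotype (80.0%, against 49.1%). The share by PL genotype was lower under another scaling, and the cause of this was not tested. With an offset for transcript length, 20 of 35 were below 0 by PL genotype, and 8 rather than 16 had an unadjusted p below 0.05 with a lower level.

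Among the HSP70 and HSP110 genes, 3 of 5 tested fell by PL genotype. Hsph1 changed by -0.96 ± 0.16 (adjusted p = 0.000499), Hspa8 by -0.53 ± 0.09 (adjusted p = 0.000506) and Hspa1b by -1.19 ± 0.29 (adjusted p = 0.0143, edgeR). By LL genotype Hsph1 (-0.83 ± 0.15, adjusted p = 0.000291) and Hspa1b (-0.95 ± 0.26, adjusted p = 0.0245) fell, and Hspa8 gave -0.44 ± 0.09 (adjusted p = 0.00116), short of the fold threshold. Hspa4 and Hspa4l, both of the HSP110 family, were not called, at -0.08 ± 0.04 and -0.43 ± 0.13 by PL genotype. Hspa1b and Hsph1 had the lowest estimates of all members in both contrasts.

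Among the 5 J-domain genes only Dnajb1 was called, by PL genotype (-0.60 ± 0.11, adjusted p = 0.000545). By LL genotype it gave -0.51 ± 0.10 (adjusted p = 0.00098, edgeR), just short of the fold threshold. Dnaja1, which serves Hspa8 in the cytosol, gave -0.31 ± 0.08 and -0.32 ± 0.07 by PL and LL genotype, with adjusted p of 0.0188 and 0.00448 (edgeR). Its CPM was between 169 and 302 in PP mice, between 147 and 204 in PL and between 132 and 241 in LL mice without GKA, so the groups overlapped. Dnaja1 overlaps Smu1 on the opposite strand and shares sequence with a processed pseudogene, and the strand setting of the quantification is not given in the sources used here, so its reads are uncertain. Dnajb4 gave -0.30 by PL and -0.05 by LL genotype, and Dnaja2 and Dnajb6 lay within 0.04 of 0 in both.

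Of the HSP90 genes, Hsp90aa1, the inducible form, fell by PL genotype, at -0.57 ± 0.13 (adjusted p = 0.00802, edgeR). Without GKA it was between 174 and 271 CPM in PP mice (median 217), between 135 and 196 in PL (median 156) and between 88.8 and 278 in LL (median 162). LL mouse 42, at 278 CPM, was above all PP mice, the other LL mice were at most at 195 CPM, and 6 of 10 LL mice were below all PP mice. By LL genotype its estimate was -0.30 ± 0.12 (adjusted p = 0.171, edgeR). Hsp90ab1, the constant form, gave -0.31 ± 0.06 by PL genotype (adjusted p = 0.0035, edgeR), short of the fold threshold, and -0.15 ± 0.06 by LL genotype (adjusted p = 0.179, edgeR).

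Among the 8 co-chaperones, Bag3 and Chordc1 fell by PL genotype and Bag3 by LL genotype. Bag3, a partner of HSP70 in the clearance of misfolded proteins by autophagy, was between 14.7 and 42.4 CPM in PP mice without GKA (median 24.0), between 10.2 and 21.7 in PL (median 16.4) and between 11.1 and 30.3 in LL (median 15.1). Its log2 fold change was -0.52 ± 0.13 by PL (adjusted p = 0.0144) and -0.53 ± 0.12 by LL genotype (adjusted p = 0.00503, edgeR). Chordc1, an HSP90 partner, was between 19.6 and 35.8 CPM in PP (median 28.1), between 8.72 and 22.8 in PL (median 16.8) and between 10.5 and 31.8 in LL (median 16.0). It gave -0.58 ± 0.12 by PL (adjusted p = 0.00328) and -0.45 ± 0.11 by LL genotype (adjusted p = 0.00814, edgeR), the latter short of the fold threshold. For both genes most PL and LL mice lay below the PP mean, and the groups overlapped. Fkbp4, a peptidyl-prolyl isomerase that rides on HSP90 with steroid receptors, had a small and even difference, -0.29 ± 0.05 in both contrasts, with adjusted p of 0.000655 and 0.000127 (edgeR), short of the fold threshold in each. Stip1, which links HSP70 to HSP90, gave -0.45 ± 0.09 and -0.30 ± 0.09, and Ptges3 (p23), an HSP90 co-chaperone whose sequence is partly shared with a transcribed pseudogene, gave -0.05 ± 0.09 and 0.00 ± 0.09.

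None of the small heat shock proteins, which hold unfolded clients without ATP, was called. Hspb1 was between 8.01 and 18.1 CPM in PP mice without GKA (median 10.6), between 7.99 and 16.6 in PL (median 10.5) and between 8.46 and 31.5 in LL (median 12.6). Some LL mice were thus above all PP and PL mice while others were within them. Its estimate was 0.50 ± 0.18 for LL against PP (adjusted p = 0.13) and 0.73 ± 0.20 for LL against PL (adjusted p = 0.0758), where 0.34% of all genes were called and no member was by edgeR. In that contrast 6 of 35 members were higher at an unadjusted p below 0.05 (4.68% of all genes). DESeq2 called Hspb1 in the latter contrast, where it called 0.444% of all genes. Hspb8, a partner of Bag3, gave 0.04 ± 0.09 by PL and -0.15 ± 0.08 by LL genotype, and Cryab, near the filter at about 1 CPM, gave -0.01 ± 0.19 and -0.14 ± 0.19.

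The CCT subunits and the mitochondrial chaperones gave estimates close to 0 in the additive fit over all mice. Over the 8 CCT genes the log2 fold change was between -0.13 (Cct3) and 0.05 (Tcp1) by PL genotype and between -0.17 (Cct3) and 0.00 (Cct8) by LL genotype, and none had an adjusted p below 0.05. Cct3, the lowest of them, was between 54.4 and 79.6 CPM in PP, between 44.8 and 68.7 in PL and between 46.7 and 64.0 in LL mice without GKA. Reads of Tcp1 overlap 3 genes on the opposite strand, of which Acat3 has more reads. For Hspd1, HSP60 of mitochondria, the PP mean was 286 ± 15.0 CPM, against 285 ± 17.3 CPM for PL and 288 ± 20.8 CPM for LL mice without GKA. Its estimates were -0.04 ± 0.04 and -0.02 ± 0.04, and its promoter is the stretch with a 3-unit string shared with Hspe1. Hsf1 itself gave -0.04 ± 0.09 by PL and 0.14 ± 0.09 by LL genotype, with means of 6.84 ± 1.06, 6.42 ± 1.15 and 6.92 ± 1.23 CPM in PP, PL and LL mice without GKA. Exons of Hsf1 overlap Dgat1 and Bop1 on the opposite strand, so its reads are uncertain. The transcript level of Hsf1 says nothing of the activity of its protein, which was not measured.

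**Figure D3:**
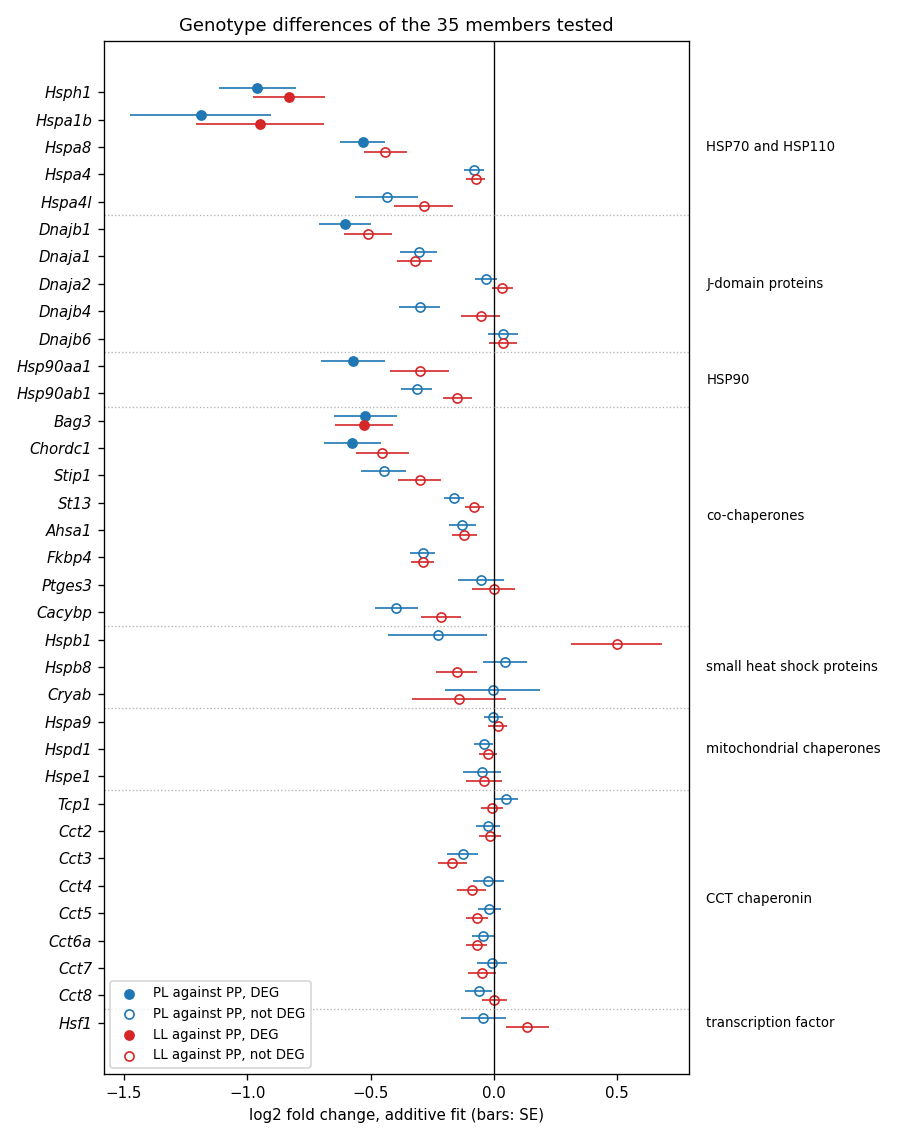
Log2 fold change (point) with SE (bar) by PL and by LL genotype for the members tested over all 55 mice, grouped by role, with filled points for called genes and open points for the others. Members with negative estimates gather among the HSP70 and HSP110, J-domain, HSP90 and co-chaperone genes, and CCT and mitochondrial genes lie near 0.

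With GKA, the comparisons by genotype were repeated in the 3 treated groups. No member was called by PL genotype and none by LL genotype, where 0% and 0.239% of all genes were called. An unadjusted p below 0.05 with a lower level was found for 12 of 34 members by PL genotype (4.31% of all genes) and for 9 by LL genotype (5.11%). Hsph1 was between 16.7 and 58.2 CPM in PP mice with GKA (median 39.6), between 16.6 and 23.8 in PL (median 18.5) and between 15.2 and 36.4 in LL (median 17.5), so all treated PL and LL mice were below the treated PP mean. Its log2 fold change was -0.96 ± 0.19 by PL (adjusted p = 0.113) and -0.74 ± 0.22 by LL genotype (adjusted p = 0.166, edgeR). Without PP mouse 17 of the GKA group, the lowest of its group, Hsph1 was called by PL genotype (-1.05, adjusted p = 0.019, edgeR), with 0.00958% of all genes. DESeq2 called Hsph1 and Hsp90aa1 by PL genotype with all mice (0.295% of all genes) and none by LL genotype (0.88% of all genes). Both comparisons share the PP mice with GKA.

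By estimate, Hsp90aa1 was next after Hsph1 by PL genotype, at -0.67 ± 0.14 (adjusted p = 0.121), and Dnajb1 and Hspa8 were at -0.39 ± 0.13 and -0.36 ± 0.12. By LL genotype Fkbp4 had the smallest adjusted p, at -0.32 ± 0.07 (adjusted p = 0.0586, edgeR), and all 10 treated LL mice were below the treated PP mean of 134 ± 10.2 CPM. Between LL and PL mice with GKA no member was called (0% of all genes), and 4 of 34 were higher at an unadjusted p below 0.05 (3.79% of all genes): Hspb1 (0.94 ± 0.34), Hsp90aa1, Hsp90ab1 and Hspa4l. Hspb1 ranged from 8.05 to 55.2 CPM in treated LL mice, against 5.47 to 23.5 CPM in treated PL mice.

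GKA within a genotype moved no member past the test. Over all genes the share called was 0% for PP mice, 0% for PL mice, 0% for LL mice and 0% with all mice in the additive fit, by edgeR, and DESeq2 called no member. In PP mice 7 of 34 members were lower at an unadjusted p below 0.05 (2.08% of all genes), and Hspb1 was higher. Hspa1b was between 1.02 and 8.47 CPM in PP mice with GKA (median 3.75), against the median of 7.63 without, and all 10 treated mice were below the untreated mean. Its log2 fold change was -1.14 ± 0.35 (unadjusted p = 0.00346, adjusted p = 1, edgeR). The other 6 were Hspa8, Dnajb1, Dnaja1, Dnajb4, Bag3 and Chordc1, between -0.41 and -0.20. In PL mice only Hsph1 had an unadjusted p below 0.05 (-0.35 ± 0.12), where 178 of 10399 genes were lower and 153 higher at that threshold. In LL mice no member did. Over all mice, 4 of 35 members were lower at an unadjusted p below 0.05, against 308 of the 11477 genes tested. These were Hspa1b (-0.65 ± 0.23), Hsph1, Bag3 and Dnaja1.

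The interaction of GKA with genotype asks whether the genotype difference depends on GKA. No member passed for PL or for LL genotype, with 0% of all genes called in each by edgeR, and DESeq2 called no member. For PL genotype Hspa1b (1.32 ± 0.47), Dnajb1 (0.44 ± 0.19) and Hspa8 (0.36 ± 0.17) had an unadjusted p below 0.05, each with adjusted p = 1 (edgeR), and for LL genotype no member did. Of the 11152 genes tested for PL genotype, 206 were above 0 and 168 below 0 at that unadjusted threshold. A p that misses the threshold does not show that the genotype difference was the same with and without GKA.

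**Figure D4:**
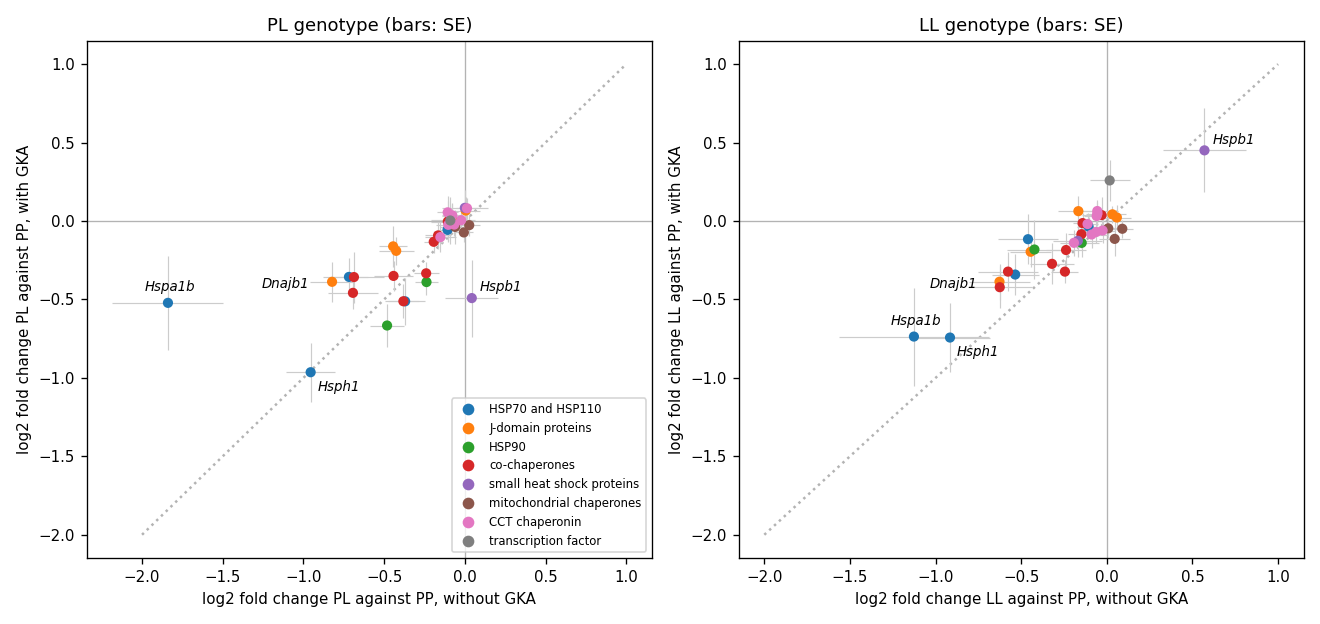
Log2 fold change by PL genotype and by LL genotype, in separate panels, without GKA on the horizontal axis and with GKA on the vertical axis, with a point for each member tested, bars for the SE, colours by role and a dotted line where both are equal. Hsph1 keeps -0.96 in both for PL genotype, while Hspa1b, Dnajb1 and Hspa8 lie nearer to 0 with GKA.

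Mice of the same group also differed in these transcripts, so the members were compared with Hsph1 across 55 mice after subtraction of each group's mean from log2 CPM. Of 34 members, 13 correlated with Hsph1 at a permutation p below 0.05 after adjustment over the 39 relations computed, and all 13 were positive. The share of all genes that correlate with Hsph1 in this way was not computed. Of genes outside the members that are described below, Hspa5, Dbp and Cirbp also passed and Rbm3 did not, so the relation was not particular to members. Stip1 was closest, with Pearson r = 0.825 and Spearman rho = 0.839 (adjusted permutation p = 6.5e-05 for each, from the smallest p that 100000 resamples can give, 1e-05). Hsp90aa1 (r = 0.73, rho = 0.722), Hsp90ab1 (r = 0.714, rho = 0.66), Chordc1 (r = 0.71, rho = 0.716) and Hspa4l (r = 0.665, rho = 0.624) followed, at the same adjusted permutation p. Stip1, Hsp90aa1, Hsp90ab1 and Chordc1 were positive within each of the 6 groups.

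The other members called by PL genotype without GKA followed Hsph1 less closely by r. Hspa8 had r = 0.582 (rho = 0.407), Hspa1b r = 0.482 (rho = 0.312) and Dnajb1 r = 0.415 (rho = 0.287), with adjusted permutation p of 0.00065, 0.00637 and 0.0219 for r. By rho the adjusted permutation p were 0.0127, 0.0766 and 0.0904, so Hspa1b and Dnajb1 did not pass by rank, and 10 rather than 13 members did. Without the 2 mice farthest from the median of Hsph1 (LL mouse 42 and PP mouse 17 with GKA), r was 0.434, 0.264 and 0.219, so the relation of Hspa1b and of Dnajb1 with Hsph1 was weaker without those mice. Bag3 did not pass (r = 0.276, rho = 0.153, adjusted permutation p = 0.107 and 0.396). For the 8 CCT subunits the median r was -0.09 and none passed. Hsf1 had r = -0.05.

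**Figure D5:**
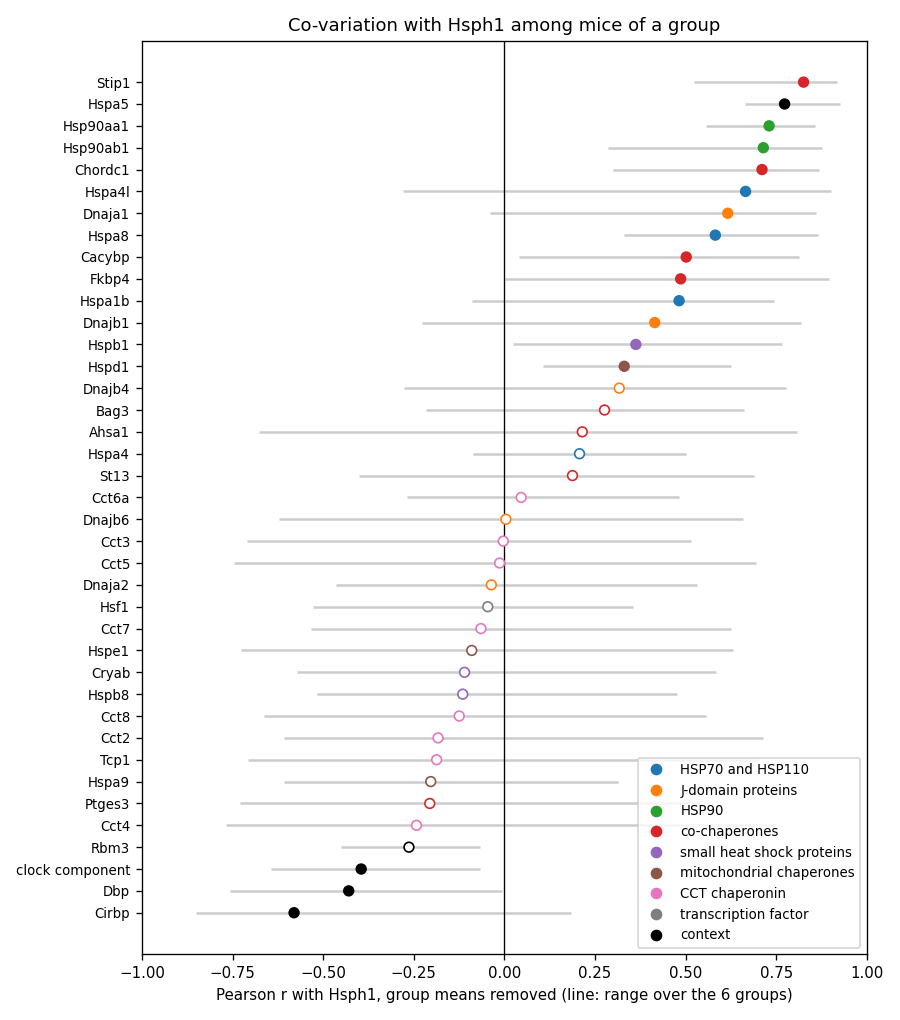
Pearson correlation with Hsph1 over 55 mice after removal of group means, for each member (coloured by role) and 5 other measures (black), with lines from the lowest to the highest correlation within a group and filled points where the adjusted permutation p was below 0.05. HSP90 genes, Stip1 and Chordc1 lie above 0.7, and CCT subunits scatter about 0.

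Several other transcripts differed by genotype in the additive fit over all mice, where 1.05% of all genes were called by PL and 1.7% by LL genotype. Of 18 genes for chaperones of the endoplasmic reticulum and the unfolded protein response, 8 fell by PL and 7 by LL genotype and none rose. Hspa5 (BiP), the HSP70 of the endoplasmic reticulum, gave -0.71 ± 0.16 and -0.72 ± 0.15 (adjusted p = 0.00802 and 0.00216, edgeR), and correlated with Hsph1 over mice at r = 0.773 (rho = 0.764, adjusted permutation p = 6.5e-05). Creld2, Manf, Hyou1, Dnajb9, Herpud1 and Ddit3 fell in both contrasts and Pdia4 by PL genotype. Of 37 other cytosolic chaperones and co-chaperones 33 were tested, none was called by PL genotype and Dnaja4 alone by LL genotype (-0.66 ± 0.15, adjusted p = 0.00483, edgeR). None of 8 prefoldin and phosducin-like genes, which serve CCT, and none of 9 genes of the HSF family and further HSF1 targets was called by edgeR, and in each list 2 genes had an unadjusted p below 0.05 with a lower level in each contrast. Of 11 genes of mitochondrial protein quality control, Grpel2 rose by LL genotype (0.42 ± 0.09, adjusted p = 0.00549, edgeR). Of 10 immediate early genes 7 were tested and none was called by PL genotype, while Btg2 (-0.68 ± 0.19, adjusted p = 0.0329) and Zfp36 (-0.56 ± 0.11, adjusted p = 0.00148, edgeR) fell by LL genotype. In LL against PL over all mice Junb (-0.92 ± 0.20) and Zfp36 (-0.55 ± 0.12) were lower, with adjusted p of 0.0112 and 0.00934 (edgeR).

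Clock transcripts also differed by genotype in the same fit, with its shares of 1.05% and 1.7% over all genes. Of 16 clock genes, 5 rose (Per3, Cry2, Nr1d1, Dbp and Tef) and 4 fell (Bmal1, Npas2, Cry1 and Nfil3) by PL genotype. By LL genotype Dbp rose and the same 4 fell. Dbp, a clock output gene, gave 1.37 ± 0.35 and 1.16 ± 0.34 (adjusted p = 0.0216 and 0.0349, edgeR), and its median without GKA was 12.7 CPM in PP, 50.8 in PL and 34.5 in LL mice. Across mice within groups, Dbp was inversely related to Hsph1 (r = -0.43, rho = -0.455, adjusted permutation p = 0.0143 and 0.00788). The main component of the clock genes, which held 57.2% of their variance, had a mean of -0.60 ± 0.59 for PP, 0.56 ± 0.80 for PL and 0.49 ± 0.79 for LL mice without GKA. With this component as a covariate, the calls by PL genotype over all genes went from 120 to 16 (0.139%). Of the 7 members 2 remained called, Dnajb1 (-0.65, adjusted p = 0.00719) and Hspa8 (-0.59, adjusted p = 0.00562), and Hsp90aa1 went from -0.57 to -0.25 ± 0.13 (adjusted p = 0.395, edgeR). The others that lost the call were Hsph1 (-0.69 ± 0.17, adjusted p = 0.0553), Hspa1b (-1.09 ± 0.34, adjusted p = 0.145), Bag3 (-0.62 ± 0.15, adjusted p = 0.0584) and Chordc1 (-0.38 ± 0.13, adjusted p = 0.197, edgeR). By LL genotype Bag3 (-0.59), Dnajb1 (-0.54) and Hsph1 (-0.65) were called with the covariate, where 81 rather than 195 of all genes were called. With it all CCT subunits were below 0, between -0.17 (Cct3) and -0.002 (Tcp1) by PL and between -0.20 (Cct3) and -0.04 (Cct8) by LL genotype. Cct3, Cct4 and Cct6a had an unadjusted p below 0.05 in both contrasts and Cct2 by PL genotype (edgeR). No CCT subunit had an adjusted p below 0.05. The labels give no time of day or batch, and the part of either in these results was not tested beyond this covariate. Cirbp, a cold-induced RNA-binding protein, gave 0.43 ± 0.13 and 0.39 ± 0.12 (adjusted p = 0.0581 and 0.0532, edgeR), and was inversely related to Hsph1 (r = -0.58, rho = -0.508, adjusted permutation p = 0.00039 and 0.00117). Rbm3, another of this kind, gave 0.13 ± 0.12 and 0.24 ± 0.12.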

How the data were processed

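RNA of 56 mouse livers (left lateral lobe, RNA integrity number above 6) was sequenced, with 1 deposited file per mouse. The authors trimmed no reads and ran Salmon 1.4.0 on GENCODE M26 transcripts (GRCm39). The deposited files list an estimated count for each transcript, with no normalisation. They also hold length, effective length and, per the file headers, TPM. Here estimated counts of 137570 of 139225 transcripts were summed per gene with GENCODE vM39 and rounded.

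In R 4.3.3, edgeR 4.0.16 (TMM, filterByExpr, quasi-likelihood test) gave p-values, adjusted by Benjamini-Hochberg over all genes tested. A gene was called where adjusted p was below 0.05 and the fold reached 1.3 or went down to 0.7 (interactions: adjusted p alone). Each pair of groups was fitted alone, and genotype and GKA were also fitted as additive terms over 55 mice. PP mouse 7 was left out as in the study. Of the 36 members, 14 were below the range of the other PP mice in mouse 7 and none above. CPM used TMM scaling, and log2 CPM a prior count of 2. Fits were tested on simulated data. Correlations used Python 3.11.15 with SciPy 1.17.1 and permutation within groups, two-sided. At the depth of 5189852 to 8093368 reads per mouse, Hspa1a had 1.14 reads on average and could not be tested.

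The members and lists were chosen with earlier results of these data known. Members given by group were those called in any fit over all mice or pairs, up to 2 per role with the smallest p for each of PL and LL against PP over all mice, and Hsph1, Dnajb1, Hspa1a, Hspa1b, Hspa8, Hsp90aa1, Hspb1 and Hsf1. Values of further members were chosen after they were seen. Other lists were given by counts, with called genes and Hspa5, Dbp, Cirbp and Rbm3 named. Alternatives were DESeq2 1.42.0, RLE size factors, no filter, all 6 groups in 1 fit, mouse 7 kept, protein-coding transcripts only, a transcript length offset, the clock component as covariate, the sum of Hspa1a and Hspa1b, and leaving out each mouse. An offset from transcripts of at least 1000 bases, adjusted p alone, CPM per kilobase for levels and Spearman counts were chosen after seeing the data. Promoter sequences came from RefSeq (GRCm38.p6), gene positions from GRCm39. The p-values measure the spread between mice whose litters are not given in the sources used here.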

Additional observations from a re-analysis of the deposited data

Results flagged for a closer look

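In 8 of 108 groups of mice tested (18 members by 6 groups), the highest or lowest mouse stood apart from the others by more than Dixon's 95% critical value for the ratio of its gap to the whole range, taken on log2 CPM. The ratios below are on that scale, with the level given in CPM. Chance flags about 1 in 20 groups.

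LL mouse 42 without GKA was the highest of its group in 3 of these, with 16.6 CPM and a ratio of 0.540 for Hspa1b, 1316 CPM and a ratio of 0.749 for Hspa8, and 18.0 CPM and a ratio of 0.496 for Dnajb1. It was also the mouse whose removal took the members called by LL genotype without GKA from 0 to 7. The level of Dnaja1 was lowest in PP mouse 17 with GKA (135 CPM, ratio 0.479) and highest in LL mouse 49 with GKA (226 CPM, ratio 0.480). Hspb1 stood apart at the top in PP mouse 8 without GKA (18.1 CPM, ratio 0.545) and in PL mouse 29 with GKA (23.5 CPM, ratio 0.564). Cct6a was lowest in PL mouse 23 without GKA (58.4 CPM, ratio 0.563).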

How the results depend on the processing

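The 4 members called by PL genotype without GKA (0.151% of all genes) were 6 with DESeq2 (0.671%) and 3 with the clock covariate (0.0945%). With the transcript length offset they were 0, and of all genes 0% were called. With that offset 1 member was called by PL (Dnajb1) and 1 by LL genotype (Hsph1) over all mice, against 7 and 3. Over all genes the shares called there were 0.113% and 0.244%, against 1.05% and 1.7%. The offset takes its lengths from libraries with mean fragments of 171 to 681 bases. An offset from transcripts of at least 1000 bases, chosen after seeing the data, gave 4, 7 and 4. The shares called over all genes were then 0.132%, 0.845% and 1.53%. The clock covariate left 2 called by PL genotype over all mice (0.139% of all genes). DESeq2 called 3 by LL genotype without GKA, 2 by PL genotype with GKA and 1 in LL against PL over all mice, and a fit of all 6 groups called 3 and 1 in the former pair. Adjusted p alone gave 14 and 9 over all mice. With PP mouse 7 kept, Hspa8 and Bag3 were not called by PL genotype over all mice. Leaving out each mouse gave 2 to 5 by PL without GKA, 0 to 7 by LL without GKA, 0 to 1 by PL with GKA and 0 by LL with GKA. The shares over all genes in these fits were 0.0468% to 0.295%, 0% to 0.813%, 0% to 0.00958% and 0.114% to 0.447%. Of the comparisons of counts of members called that kept all these mice or added mouse 7, 127 kept within 1.5 times, 7 went up and 4 went down. A count of 0 in both was taken as kept. In most comparisons the main fit called no member, so the 127 say little of how firm the calls are.

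Among the values of named members, 5 turned in sign. With the length offset these were Chordc1 by PL genotype without GKA (0.024), Dnaja1 by PL genotype with GKA (0.035), Hsf1 by PL genotype over all mice (0.63) and Hspa8 in the interaction of GKA with PL genotype (-0.086). With the clock covariate it was Hsf1 by PL genotype over all mice (0.098). Over all members tested, that offset took the number above 0 from 4 to 13 of 34 by PL genotype without GKA, from 3 to 15 of 35 by PL genotype over all mice and from 24 to 13 of 34 for LL against PL without GKA. The cause of these changes was not tested. No paired analysis was possible because the mouse numbers are not shared between groups.

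Depth limits the low genes: Hspa1a could not be tested, and Hspa1b had 26.9 reads per library on average. No file states the strand setting, so reads of genes that overlap on opposite strands cannot be told apart. Among the members this holds for Dnaja1, Dnajb4, Hsp90ab1, St13, Ahsa1, Cacybp, Cryab, Hspd1, Hspe1, Hsf1 and several CCT subunits (Tcp1, Cct5 and Cct8 among them). Transcript levels of whole liver do not give protein levels, HSF1 activity or the cell of origin.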
